A study of Mus musculus with 4 samples.

Results

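The genes examined here encode the enzymes that make cholesterol and fatty acids, with the regulators that set their transcription. The set holds 33 named mouse genes in 3 groups, 17 enzymes of sterol synthesis, 6 genes of SREBP regulation and 10 enzymes of fatty acid synthesis. They were matched by symbol, and 32 of the 33 had a row and entered the test among 12612 genes tested, of 28074 gene symbols in all. No row matched Hmgcs1, the synthase that makes HMG-CoA, so it has no value here.

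The samples were leukaemic spleen cells of 2 mice, numbered 4050 and 4182. Per the labels the mice carry the internal tandem duplication on both Flt3 alleles (Flt3 ITD/ITD), floxed Dnmt3a and the Mx1Cre transgene. Mx1Cre is an interferon-inducible recombinase that is not limited to blood cells. The Dnmt3a genotype is given both as homozygous floxed and as Dnmt3a+/-, and the data do not settle which. Both groups share these alleles, so no comparison here bears on genotype. Thawed cells of each mouse recovered for 24 h in medium that held IL3 and IL6 (20 ng/ml of either), SCF (60 ng/ml) and 20% serum. They were then kept for 3 days with vehicle (control, n = 2) or with R848 at 10 µg/ml (n = 2). R848, or resiquimod, is a synthetic compound that activates TLR7 and TLR8, endosomal sensors of single-stranded RNA. The comparison asks which transcripts and pathways respond to it in this leukaemia.

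One RNA sequencing value per gene and sample was available, on a log2(FPKM + 1) scale, where FPKM is a read count per gene length and library size. FPKM values below were obtained by undoing that logarithm, and every difference is R848 minus control in log2(FPKM + 1). Without read counts the depth is unknown, and the precision of each value rests on the 2 mice. Linear values summed to between 948926 and 960471 per sample, as TPM values would, so the values may be TPM. They are called FPKM because the authors named them so. In a mixed bulk sample, fewer cells that use a gene and less RNA of that gene per cell cannot be told apart. Myeloid progenitor markers were present, as the label implies, with Mpo, the myeloperoxidase of granules, at 1475 and 1533 FPKM in control and 1281 and 1052 FPKM with R848 (mice 4050 and 4182). The 5 fibroblast markers were under 1 FPKM in all 4 samples.

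Cholesterol is built from acetyl-CoA through mevalonate, isoprenoid units, squalene and lanosterol, and fatty acids are built from the same acetyl-CoA by carboxylation, chain synthesis, elongation and desaturation. The transcription factors SREBP2 and SREBP1 switch on these genes: SCAP carries the precursors from the endoplasmic reticulum to the Golgi for cleavage, and INSIG proteins hold SCAP back when sterols are plentiful. SREBP2 is known mainly for the sterol genes and SREBP1c for the fatty acid genes. In macrophages, Toll-like receptor and interferon signalling are known to alter both branches.

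Promoters of SREBP targets commonly combine a sterol response element with a CCAAT box, bound by NF-Y, and a GC box, bound by Sp1. RefSeq promoter sequences on GRCm38.p6 were present for 26 of the 33 genes. Over the 250 bases before the start, on either strand, CCAAT was found in 13 of 14 sterol genes (not in Acat2), 4 of 5 regulatory genes and 3 of 7 fatty acid genes, beside 37.5% of 27025 genes. GGGCGG was found in 13 of 14 sterol genes (not in Pmvk), 5 of 5 regulatory genes and 3 of 7 fatty acid genes, beside 35.4% of all genes. The sterol response element core searched, TCACNCCAC, was found in 1 of the 26, Hmgcs1, and in 1.22% of all genes. These are letter matches, not measured binding. A missing match says only that these letters are absent from the window, and genes with several starts had several windows. The 110 bases before the start used for Acaca are chr11:84195328-84195437, inside its locus, which starts at 84129672 in GENCODE. That window held neither CCAAT nor GGGCGG, and no other window of Acaca was searched. The sequences below are the 110 bases before the start, 5′ to 3′ on the gene's strand, with letters of a CCAAT or GGGCGG match on either strand in capitals. They show the recurrence of CCAAT, or ATTGG on the other strand, in sterol genes with a large or a small difference.
Sc5d: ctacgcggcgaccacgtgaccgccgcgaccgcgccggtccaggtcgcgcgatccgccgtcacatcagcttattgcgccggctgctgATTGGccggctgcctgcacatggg
Mvk: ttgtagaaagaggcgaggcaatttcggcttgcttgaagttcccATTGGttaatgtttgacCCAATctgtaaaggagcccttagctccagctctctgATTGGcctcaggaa
Mvd: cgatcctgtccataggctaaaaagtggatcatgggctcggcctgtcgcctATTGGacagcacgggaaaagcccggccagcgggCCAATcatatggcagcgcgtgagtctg
Ebp: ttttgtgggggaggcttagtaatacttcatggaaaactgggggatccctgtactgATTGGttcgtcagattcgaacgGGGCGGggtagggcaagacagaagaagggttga
The Sc5d stretch is chr9:42264301-42264410 (minus strand), and its RefSeq start lies outside the GENCODE transcript of the gene, which ends at 42264256. The Mvk stretch is chr5:114444159-114444268 (plus strand), the Mvd stretch chr8:122443423-122443532 (minus strand) and the Ebp stretch chrX:8193513-8193622 (minus strand). None of the 4 overlaps an annotated exon. Of these, Ebp holds its GGGCGG within the printed bases, while those of Sc5d, Mvk and Mvd lie further from the start. For contrast, the next lines give Fasn, in which adjoining matches on both strands share letters, and Acly, which has GGGCGG matches and no CCAAT.
Fasn: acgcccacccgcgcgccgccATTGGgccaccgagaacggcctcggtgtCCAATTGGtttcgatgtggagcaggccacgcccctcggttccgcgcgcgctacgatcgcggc
Acly: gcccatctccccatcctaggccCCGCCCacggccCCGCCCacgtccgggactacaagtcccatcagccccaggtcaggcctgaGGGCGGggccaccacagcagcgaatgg
The Fasn stretch is chr11:120824548-120824657 and the Acly stretch chr11:100528001-100528110, both on the minus strand.

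Sterol synthesis transcripts were higher with R848 along most of the pathway. Of the 16 enzymes measured, 14 were higher in both mice, beside 22.1% of all genes tested, and both R848 samples lay above both controls for 12, beside 13.5% of all genes. Their median difference was 0.36 (0.30 in mouse 4050 and 0.46 in mouse 4182), beside a median of -0.08 over all genes (0.00 and -0.16). The differences of single genes were small, from -0.01 to 0.62. By limma with Benjamini-Hochberg adjustment over all genes, 0 of the 16 passed in either direction, beside 1.47% of all genes called higher and 0.381% called lower. At an unadjusted p under 0.05, 5 of the 16 were higher (Acat2, Idi1, Fdps, Cyp51 and Sc5d) and 0 lower, beside 5.20% and 6.33% of all genes. With the mouse as a block, limma called 2 of the 16 higher, Sc5d and Idi1, and 0 lower, beside 3.40% and 1.90% of all genes. In the blocked fit the unadjusted limma p was also under 0.05 for Mvk (0.0144), Pmvk (0.0355) and Hsd17b7 (0.00614), all higher. Over all genes it was under 0.05 for 1944 of 12612, in either direction.

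**Figure D1:**
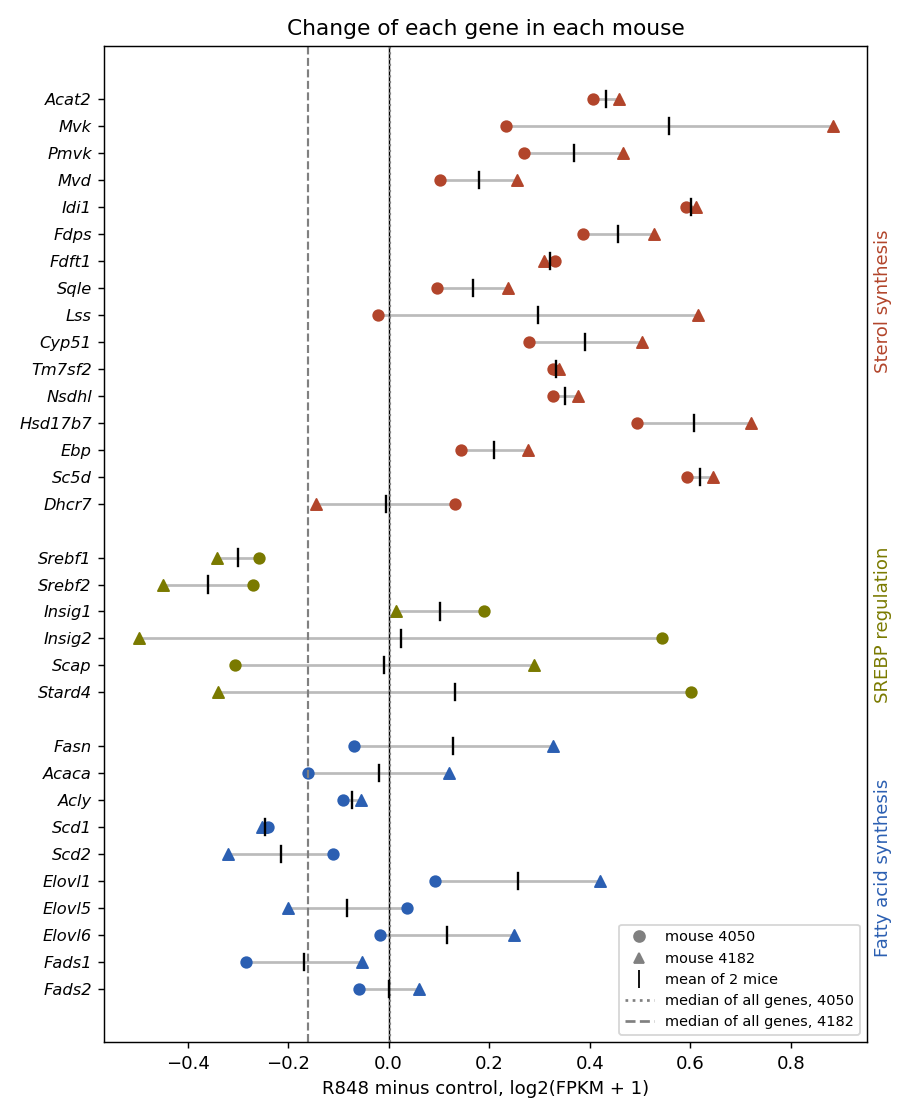
Difference of each gene in each mouse, R848 minus control in log2(FPKM + 1), with circles for mouse 4050, triangles for mouse 4182, a tick at their mean and vertical lines at the median of all genes in each mouse. Sterol enzymes lie mostly to the right of 0 in both mice, except Lss in mouse 4050 (-0.02) and Dhcr7 in mouse 4182 (-0.14), while fatty acid enzymes lie on both sides.

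The first steps make mevalonate and turn it into the isoprenoid unit. Acat2, the cytosolic thiolase that joins acetyl-CoA units, was at 56.2 and 49.7 FPKM in control and 74.8 and 68.7 FPKM with R848, in mice 4050 and 4182, the order kept throughout. Both R848 samples lay above both controls, with a difference of 0.43 ± 0.160 (SE, n = 2 per group, limma adjusted p = 0.342). Acat2 has a close relative in the mouse genome, Acat3, and how reads shared by them were assigned is not given in the sources used here. Mvk, mevalonate kinase, was at 27.9 and 15.8 FPKM in control and 33.1 and 30.0 FPKM with R848. Its groups did not overlap, yet the mice differed in size, 0.23 and 0.88, with the control of mouse 4182 the lowest of the 4 values. Pmvk, phosphomevalonate kinase, was at 67.7 and 52.8 against 81.8 and 73.4 FPKM (difference 0.37). Mvd, which decarboxylates mevalonate diphosphate, was at 71.2 and 61.0 against 76.6 and 73.0 FPKM. Its groups did not overlap, with a difference of 0.18.

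Idi1, the isomerase of the isoprenoid unit, had the largest difference among these early steps. Idi1 (GRCm38 chromosome 13, 8885501 to 8892451, plus strand) was at 57.1 and 52.9 FPKM in control and 86.5 and 81.3 FPKM with R848. All R848 values lay above all controls, 1.52-fold in mouse 4050 and 1.54-fold in mouse 4182. The difference was 0.60 ± 0.154 (SE), with limma adjusted p = 0.140 without the block. With the mouse as a block Idi1 rose (limma adjusted p = 0.0403), and it did so with the block and median log ratio scaling (adjusted p = 0.0293), where 3.70% of all genes were called higher. The call ended with the block and quantile normalization (adjusted p = 0.0697), where 2.81% of all genes were called higher. Over the 13 alternatives the limma adjusted p of Idi1 ran from 0.0293 to 0.486.

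The middle of the pathway joins isoprenoid units into squalene and closes the ring. Fdps, farnesyl diphosphate synthase, was the most abundant enzyme of the branch at 688 and 560 FPKM in control and 899 and 808 FPKM with R848. It shares 1124 of its 4208 exon bases with Gm43738, a protein-coding gene model on the same strand. The groups of Fdps did not overlap, with differences of 0.39 and 0.53 (limma adjusted p = 0.349). Fdft1, squalene synthase, was at 37.7 and 34.3 against 47.6 and 42.8 FPKM, a difference of 0.33 in mouse 4050 and 0.31 in mouse 4182. Of its 4227 exon bases, 774 overlap Ctsb on the other strand, and whether counting used strand is not given in the sources used here. Sqle, squalene epoxidase, an oxygen-dependent control step, was at 66.6 and 53.7 against 71.3 and 63.5 FPKM. Its groups overlapped, and the difference of 0.17 had a 95% interval from -0.24 to 0.58. Lss, lanosterol synthase, was at 68.9 and 38.9 against 67.9 and 60.1 FPKM. Here 3 samples were alike and the control of mouse 4182 was low, so the difference was -0.02 in one mouse and 0.62 in the other.

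Late enzymes turn lanosterol into cholesterol. Cyp51, lanosterol demethylase, was at 62.4 and 51.4 FPKM in control and 75.9 and 73.4 FPKM with R848 (difference 0.39, limma adjusted p = 0.432), and 166 of its exon bases overlap Akap9 on the other strand. Tm7sf2, a sterol reductase, was at 30.4 and 27.7 against 38.4 and 35.3 FPKM, with nearly equal differences in the mice, 0.33 and 0.34. Tm7sf2 shares 532 exon bases with its same-strand neighbour Vps51. Nsdhl, the decarboxylating sterol dehydrogenase, was at 25.1 and 20.2 against 31.7 and 26.6 FPKM. Hsd17b7, the ketosteroid reductase that acts with it, was at 20.3 and 12.2 against 29.0 and 20.8 FPKM. Neither gene's groups overlapped, with differences of 0.35 for Nsdhl and 0.61 for Hsd17b7 (limma adjusted p = 0.555 and 0.468). Ebp, the sterol isomerase, overlapped between groups at 42.9 and 32.2 against 47.5 and 39.3 FPKM.

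Sc5d, the sterol desaturase that forms the ring double bond of the last intermediates, had the smallest p among the enzymes. Sc5d (GRCm38 chromosome 9, 42251595 to 42264256, minus strand) was at 58.5 and 58.1 FPKM in control and 88.7 and 91.4 FPKM with R848. The controls were close to each other and both R848 samples were higher, 1.52-fold in mouse 4050 and 1.57-fold in mouse 4182. The difference was 0.62 ± 0.149 (SE, 95% interval 0.27 to 0.97), with limma adjusted p = 0.118 without the block. With the mouse as a block Sc5d rose (limma adjusted p = 0.0333), and also with median log ratio scaling (adjusted p = 0.0271), but not with quantile normalization (adjusted p = 0.0657). Over the 13 alternatives its limma adjusted p ran from 0.0271 to 0.446. Dhcr7, the reductase of the final step, went its own way at 20.2 and 15.8 FPKM in control and 22.2 and 14.2 FPKM with R848. Its groups overlapped and its difference was -0.01, which became 0.05 and 0.07 under the rescalings, so no direction is given.

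**Figure D2:**
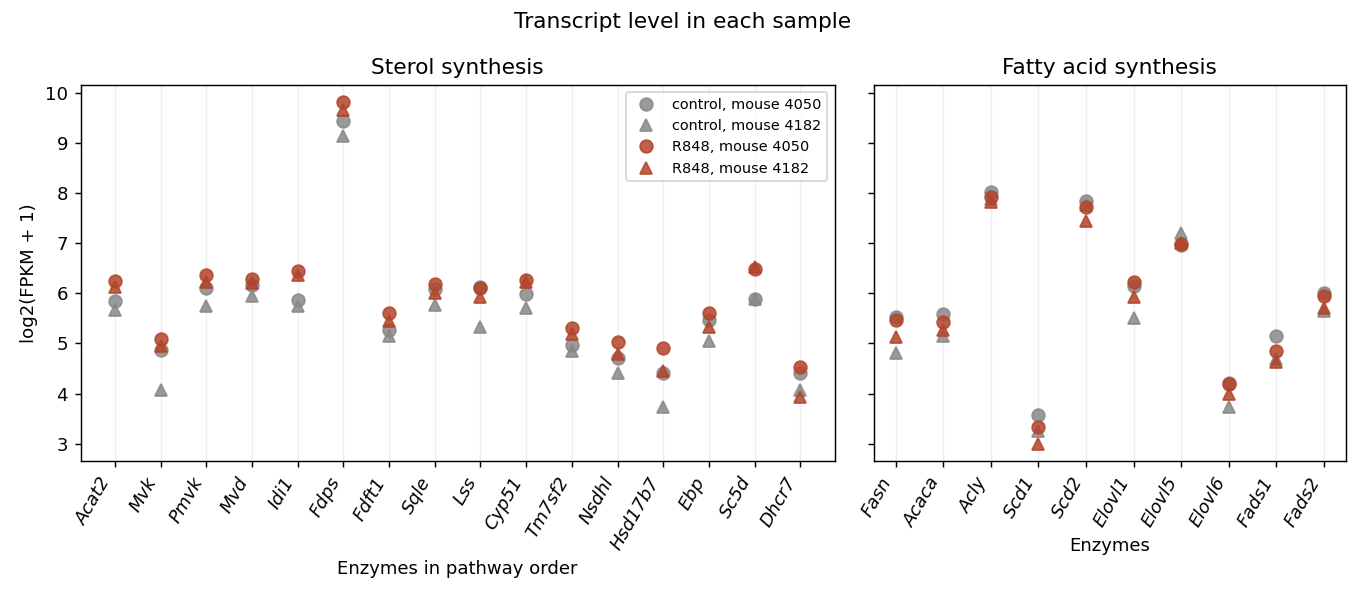
Level of each enzyme in each sample as log2(FPKM + 1), with sterol enzymes in pathway order on the left and fatty acid enzymes on the right, grey for control, red for R848, circles for mouse 4050 and triangles for mouse 4182. Red points lie above both grey points for 12 of 16 sterol enzymes and for 0 of 10 fatty acid enzymes.

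The 2 mice started from different levels. In control, mouse 4182 was below mouse 4050 for 16 of 16 sterol enzymes and 9 of 10 fatty acid enzymes, beside 50.4% of all genes, with a median gap of -0.30 for the sterol enzymes. With R848 it was below for 15 of 16 sterol enzymes, beside 9322 of 12612 genes tested. The median gap there was -0.15 for the sterol enzymes, beside -0.16 over all genes. Without the control of mouse 4182 the sterol median was 0.23, and without that of mouse 4050 it was 0.52. Under quantile normalization and median log ratio scaling 15 of 16 sterol enzymes were higher in both mice, beside 25.7% and 30.4% of all genes, with medians of 0.37 and 0.44. Median log ratio scaling moved the median of all genes in mouse 4182 from -0.16 to -0.01.

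S phase genes, which mark cells copying their DNA, were also lower in the control of mouse 4182. All 12 of a list of S phase genes were lower in the control of mouse 4182 than in that of mouse 4050, with a median gap of -0.40. With R848 their median difference was 0.06 in mouse 4050 and 0.28 in mouse 4182, and 0 of 12 passed limma at an adjusted or an unadjusted p under 0.05, and 0 were called with the block. Tyms, thymidylate synthase, was at 82.3 and 50.9 FPKM in control and 90.5 and 82.5 FPKM with R848. Its unadjusted p by limma with the block was 0.0329. Cdc6, a replication licensing factor, and Pcna, the replication clamp, had differences of 0.26 and 0.27. Of the 12, 7 were higher with R848 in both mice and 0 lower, beside 22.1% and 38.8% of all genes. The sterol medians beside these were 0.30 in mouse 4050 and 0.46 in mouse 4182, and what part cell division has in the sterol values was not tested.

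Srebf2 and Srebf1, which encode the transcription factors, were at lower levels with R848. Srebf2 was at 20.3 and 18.5 FPKM in control and 16.7 and 13.3 FPKM with R848, and Srebf1 at 67.2 and 56.8 against 56.0 and 44.6 FPKM. Both R848 samples lay below both controls for these genes, as for 28.8% of all genes. Neither passed the test: the difference was -0.36 for Srebf2 (95% interval -0.80 to 0.09, limma adjusted p = 0.547) and -0.30 for Srebf1 (95% interval -0.73 to 0.13, limma adjusted p = 0.615). Total Srebf1 does not separate its SREBP1a and SREBP1c transcripts, and transcript levels do not report cleavage of the proteins. Srebf1 shares 109 exon bases with Rai1 on the other strand.

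The other regulators had no common direction. Insig1, a sterol-induced retention protein and itself an SREBP target, was at 113 and 111 FPKM in control and 129 and 112 FPKM with R848, a difference of 0.10 with a 95% interval from -0.26 to 0.47. Insig2, its relative, was at 8.37 and 9.53 against 12.7 and 6.46 FPKM, higher by 0.54 in mouse 4050 and lower in mouse 4182, at -0.50. Stard4, a carrier that moves cholesterol between membranes, split the same way at 46.8 and 60.9 against 71.5 and 47.9 FPKM, with differences of 0.60 and -0.34. Scap, the escort protein, split the other way at 17.2 and 10.7 against 13.7 and 13.2 FPKM. For these 3 genes the R848 samples lay on different sides of their own controls. Of the 6 regulatory genes, 1 was higher and 2 lower in both mice, the latter beside 38.8% of all genes. By limma 0 passed at an adjusted or an unadjusted p under 0.05, 0 were called with the block, and their median was 0.01.

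Fatty acid synthesis transcripts had no common direction. Of the 10 fatty acid enzymes, 1 was higher in both mice, 4 were lower in both and 5 differed in opposite directions, beside 22.1% of all genes higher and 38.8% lower in both. The median difference of the enzymes was -0.05 (-0.08 in mouse 4050 and 0.00 in mouse 4182). By limma 0 of 10 passed at an adjusted or an unadjusted p under 0.05, and 0 were called with the block. Both R848 samples lay above both controls for 0 of the 10 and below them for 1, Scd2, beside 13.5% and 28.8% of all genes. Without the block, the upper 95% limit of the difference lay above the sterol median of 0.36 for Fasn, Acaca, Elovl1, Elovl6 and Fads2, and ran down to 0.17 for Scd2. With the mouse as a block, that limit lay above 0.36 for Fasn, Elovl1 and Elovl6 only, and was 0.34 for Acaca and Fads2.

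Acly, the lyase that releases cytosolic acetyl-CoA for both branches, was at 257 and 234 FPKM in control and 241 and 225 FPKM with R848. Its values were close in all 4 samples, with a difference of -0.07 (95% interval -0.43 to 0.28) that became 0.01 under median log ratio scaling. Acaca, the carboxylase that commits acetyl-CoA to fatty acids, was at 46.8 and 34.4 against 41.8 and 37.5 FPKM. Fasn, fatty acid synthase, was at 45.2 and 26.8 against 43.0 and 33.8 FPKM. In both genes the R848 samples lay between the controls, and the mice differed in sign: -0.16 and 0.12 for Acaca, -0.07 and 0.33 for Fasn.

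The desaturases put double bonds into fatty acids. Scd2, the more abundant stearoyl-CoA desaturase, was at 226 and 216 FPKM in control and 210 and 173 FPKM with R848, a difference of -0.21 (limma adjusted p = 0.699). Scd1 was at 10.9 and 8.49 against 9.06 and 6.96 FPKM, with differences of -0.24 and -0.25 and overlapping groups. The Scd genes lie next to each other and are alike in sequence, so reads may be shared between them. Fads1, which makes arachidonate from its precursor, was at 34.2 and 24.7 against 27.9 and 23.8 FPKM. Fads2, the preceding desaturase, was at 63.5 and 49.1 against 60.9 and 51.2 FPKM, a difference of 0.00 (95% interval -0.45 to 0.45).

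The elongases lengthen the chains. Elovl1, which makes very long saturated chains, was at 69.3 and 44.4 FPKM in control and 74.0 and 59.8 FPKM with R848. It was the 1 fatty acid enzyme higher in both mice, by 0.09 and 0.42, with overlapping groups (limma adjusted p = 0.762), and shares 53 exon bases with Cdc20, a mitotic gene on the other strand. Elovl5, which extends polyunsaturated chains, was at 123 and 147 against 126 and 128 FPKM, and was the 1 fatty acid enzyme with the higher control in mouse 4182. Elovl6, which extends palmitate, was at 17.6 and 12.4 against 17.4 and 14.9 FPKM.

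The sterol branch lay above the fatty acid branch in each mouse. The difference between their medians was 0.38 in mouse 4050, 0.46 in mouse 4182 and 0.41 over both, and 0.42 and 0.41 with the block under quantile normalization and median log ratio scaling. In mouse 4050, 15 of 16 sterol enzymes exceeded the highest fatty acid enzyme, Elovl1 at 0.09. In mouse 4182, 9 of 16 exceeded it, Elovl1 at 0.42. Summed sterol enzyme FPKM was 1401 and 1137 in control and 1772 and 1602 with R848, while summed fatty acid enzyme FPKM was 893.8 and 796.9 against 851.1 and 753.6. Fdps makes up much of the sterol sum. No p is given for this comparison, since genes of one sample are not replicates and the members were chosen with earlier results known.

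**Figure D3:**
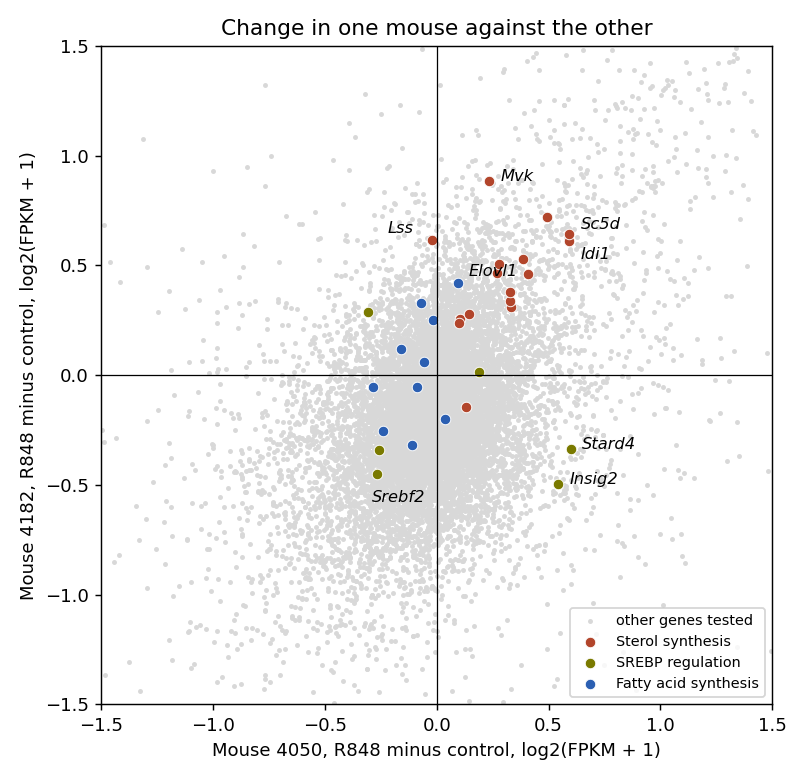
Difference in mouse 4182 against difference in mouse 4050, R848 minus control in log2(FPKM + 1), with 1 point per gene, grey for other genes tested (points beyond 1.5 in size are not shown), red for sterol enzymes, olive for SREBP regulation and blue for fatty acid enzymes. 14 of 16 red points lie at the upper right, and Insig2 and Stard4 lie at the lower right.

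Other genes of the pathway did not move as a group. Of 9 further sterol and isoprenoid genes, 0 passed limma at an adjusted or an unadjusted p under 0.05, 0 were called with the block, and their median was 0.00. Msmo1, the sterol methyl oxidase, which the table lists under the older symbol Sc4mol, was at 99.7 and 103 FPKM in control and 126 and 110 FPKM with R848 (difference 0.22). Por, the reductase that feeds electrons to Cyp51 and Sqle, had a difference of 0.24, and the mitochondrial thiolase Acat1, which is not the cytosolic enzyme of this pathway, -0.24.

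Further genes of fatty acid and lipid metabolism went both ways. Of 20 tested, 0 passed limma, with or without the block, and 2 were lower at an unadjusted p under 0.05, with a median of 0.07. Elovl7, a further elongase, was at 8.03 and 11.5 FPKM in control and 5.17 and 5.24 FPKM with R848 (-0.77, limma adjusted p = 0.209). Lpin1, a phosphatidate phosphatase, was at 7.0 and 9.71 against 5.09 and 5.06 FPKM (-0.61, limma adjusted p = 0.327). Both R848 samples of each lay below both controls. Acsl5, which activates fatty acids, had a difference of 0.30.

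Genes that process or turn over SREBP and its partners had 0 of 8 called by limma, with or without the block, and a median of -0.04. The 1 gene lower at an unadjusted p under 0.05 was Mbtps2, the site-2 protease that completes SREBP cleavage, at 11.3 and 16.7 FPKM in control and 8.54 and 8.25 FPKM with R848 (-0.65, limma adjusted p = 0.305). Mbtps1, the site-1 protease that cuts first, had a difference of -0.31. Rnf145, a ubiquitin ligase of the sterol sensing system, had one of 0.16, which turned to -0.04 without the control of mouse 4182 and to -0.02 without the R848 sample of mouse 4050.

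The cholesterol exporters Abca1 and Abcg1 differed in opposite directions. Liver X receptors (LXR) sense oxysterols and induce the exporters ABCA1 and ABCG1. Of 13 tested genes of LXR signalling, efflux and storage, 1 rose by limma, Abca1, at 3.91 and 2.40 FPKM in control and 16.9 and 9.50 FPKM with R848. Its difference was 1.75 ± 0.310 (SE, limma adjusted p = 0.0409), and with the mouse as a block its adjusted p was 3.06e-04. Abca1 passed under 6 of the 13 alternatives, with adjusted p from 3.06e-04 to 0.353. Without the block the call ended under quantile normalization (limma adjusted p = 0.0874), under median log ratio scaling (0.0738) and without the R848 sample of mouse 4182 or 4050 (0.106 and 0.230). It also ended without the control of mouse 4182 (0.0517), with no filter (0.353) and without a variance trend (0.0578), while both rescalings with the block kept it.

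Abcg1, the partner exporter, was lower at 23.3 and 22.5 FPKM in control and 9.45 and 13.8 FPKM with R848. Its difference was -0.94 ± 0.215 (SE, limma adjusted p = 0.0984), and Abcg1 fell with the mouse as a block (adjusted p = 0.0150), also with median log ratio scaling (0.0379) and not with quantile normalization (0.0662). Over the 13 alternatives its adjusted p ran from 0.0150 to 0.379. Cyp27a1, which makes the oxysterol 27-hydroxycholesterol, was at 1.14 and 1.41 against 3.51 and 2.47 FPKM (0.80, limma adjusted p = 0.238). Nr1h3, which encodes LXR alpha and was chosen after its values were seen, was at 1.99 and 1.06 against 3.04 and 3.77 FPKM (0.82, limma adjusted p = 0.261). The interferon-stimulated reference list had a median of 1.63, with 7 of 12 genes called higher and 11 with the block. Called genes included Gbp2, an interferon-induced GTPase, with a difference of 4.64, Oasl2 (3.29), Isg15 (1.88), Irf7 (1.53), Oas1a (1.34) and Oas2 (1.29), of which Irf7, Oas1a and Oas2 lost the call under both rescalings without the block.

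**Figure D4:**
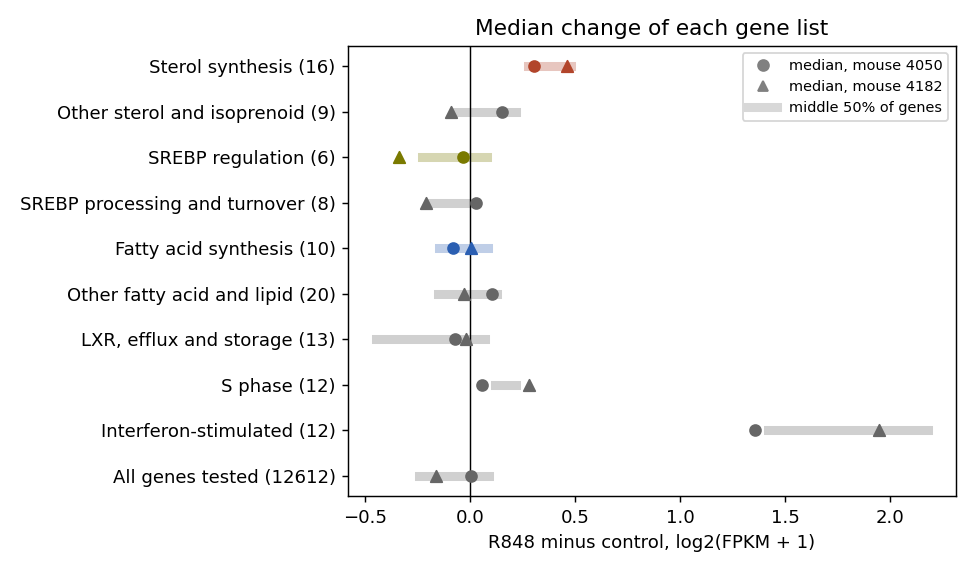
Median difference of each gene list in each mouse, R848 minus control in log2(FPKM + 1), with circles for mouse 4050, triangles for mouse 4182, bars for the middle 50% of genes by mean difference and the number of genes tested in brackets. The sterol enzymes lie at 0.30 and 0.46, apart from the other lipid lists and below the interferon-stimulated list at 1.35 and 1.95.

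Markers of cell types that could share the culture also differed between groups. Summed B cell markers were 14.7 and 16.3 FPKM in control and 41.7 and 43.3 FPKM with R848, with 3 of 5 tested genes called higher by limma and 4 with the block. Plasma cell markers summed to 535.5 and 686.3 against 1285 and 1129 FPKM, with 3 of 6 called higher, also 3 with the block. Of these sums Xbp1 made up 515 and 667 against 599 and 543 FPKM, and Igkc 4.9 and 2.74 against 601 and 507 FPKM. Monocyte and macrophage markers summed to 6178 and 4405 against 6950 and 5540 FPKM, of which Lyz2, lysozyme, made up 5690, 3993, 6174 and 4920. In that list 2 of 8 were called higher, Adgre1 and Fcgr1, and 4 with the block, which added Csf1r and Cd14. Cd68 went the other way, at 64.3 and 68.7 against 45.6 and 59.3 FPKM, and Mertk, Itgam and Lyz2 overlapped between groups. Megakaryocyte markers summed to 99.9 and 84.99 against 449.4 and 212.5 FPKM, with Pf4, a platelet chemokine, called higher (2.02, limma adjusted p = 0.0215) and also Ppbp with the block. Of these sums Pf4 made up 68.5 and 56.1 against 354 and 183 FPKM, and Ppbp 7.52 and 5.55 against 68.1 and 13.8. Both R848 samples lay below both controls for Gp9, Itga2b overlapped, and Gp1bb was under 1 FPKM in all samples. T cell markers summed to 3.03 and 5.00 against 6.81 and 10.1 FPKM, with Cd3g called higher of 3 tested. Cd3g was at 0 and 0.272 against 2.15 and 3.49 FPKM. Cd3d and Cd8a overlapped between groups, and Cd3e and Cd4 were under 1 FPKM in all samples. Both R848 samples lay above both controls for Cd8b1, which was not tested.

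Of 5 mast cell and basophil markers 0 were called by limma and 2, Fcer1a and Prss34, were higher with the block. Among 8 myeloid progenitor markers 0 were called, and Cd34 fell with the block, from 26.6 and 39.9 to 12.1 and 17.4 FPKM (limma adjusted p = 0.103 without and 0.00187 with the block). The sum of the progenitor markers was 6473 and 7397 against 7468 and 7744 FPKM. Both R848 samples lay below both controls for Kit, Cd34 and Mpo and above them for Prtn3 and Ctsg, while Elane, Myb and Cebpa overlapped. Of the neutrophil markers 0 were called either way, and their sum was 80945 and 64424 against 91751 and 50366 FPKM. Of it S100a8 made up 37968 and 29455 against 45355 and 25657 FPKM, and S100a9 34984 and 27273 against 37407 and 19760. Both R848 samples lay below both controls for Ly6g, and the other neutrophil markers overlapped, with Camp and Retnlg lower in both mice. Monocyte, neutrophil, megakaryocyte, mast cell, fibroblast and adipocyte sums were lower in mouse 4182 than in mouse 4050 in both groups. Myeloid progenitor, B cell, T cell, NK cell and erythroid sums were higher in mouse 4182 in both groups, and the plasma cell sum in control only. Nkg7 made up 126 and 201 against 193 and 197 FPKM of the NK cell sums of 126.5 and 201.5 against 194.4 and 199.4. The NK cell markers Ncr1, Klrb1c and Gzma were under 1 FPKM in all samples, as were 4 of 6 erythroid markers. Of the 5 adipocyte markers, Adipoq, Plin1, Lep and Cidec were under 1 FPKM in every sample. The other was Fabp4, also expressed by macrophages, which fell from 10.3 and 6.86 to 1.13 and 0.325 FPKM (limma adjusted p = 0.0125). The Fabp4 call was lost under quantile normalization (0.0671), with no filter (0.242) and without the R848 sample of mouse 4182 (0.109). The part of these cell types in the sterol values was not tested.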

How the data were processed

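Gene expression in 4 samples (control and R848, 2 mice) was measured by RNA sequencing. The submitters' processing notes name kallisto and mm10. Versions, annotation and gene summing are not given in the sources used here. Both ribosomal depletion and an mRNA kit are named in the labels' protocols. The authors deposited log2 values named log2 FPKM. With a lowest value of 0 they were read as log2(FPKM + 1). They are not counts, so no count model was used and depth is unknown.

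Of 28192 rows, 27 with date names and 91 repeated symbols were dropped. The 12612 genes whose mean reached 1 FPKM entered limma 3.58.1 (R 4.3.3) with a trended variance prior, two-sided, Benjamini-Hochberg adjustment and a threshold of 0.05 on 2 residual and 5.27 prior degrees of freedom. The fit was tested on simulated data. Per the labels a number names 1 animal, which pairs its samples, and deviations of same-mouse samples correlated at 0.289 across genes. The main fit has no block, and the blocked value is given where it changes a call of a gene or the count of called genes in a list. Counts at an unadjusted p are from the main fit unless the block is named. The p-values rest on the spread between 2 mice, each thawed and treated once, and on the prior, which is taken from the spread of all genes. With the block, 1 residual degree of freedom stood beside 11.30 prior ones, so the blocked p-values rest mostly on that prior.

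Members and gene lists were chosen with earlier results of these data known. Named genes are all members and, from each other list, the 3 smallest unadjusted p and every called gene, with exceptions stated. Some genes that the rule takes are left out. Loci and exons are GENCODE M21 (GRCm38), and promoters RefSeq (GRCm38.p6). Alternatives were the pseudocount (0.1), the filter (none, 5 FPKM), scaling (quantile or median log ratio), the block alone and with either scaling, no variance trend and each sample left out. Figures used matplotlib 3.10.9 in Python 3.11.15.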

Additional observations from a re-analysis of the deposited data

How the results depend on the processing

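The sterol minus fatty acid difference (0.39 to 0.44 with 1 sample left out) and the direction of the sterol median (0.23 to 0.52) held under all 13 alternatives. The fatty acid median was 0.034 under median log ratio scaling, with and without the block, and ran from -0.21 to 0.12 with 1 sample left out, and the SREBP regulation median from -0.28 to 0.11. Sterol enzymes called higher were 2 with the replicate block and 2 with the block and median log ratio scaling, and 0 under each other alternative. The block changed no call of another member. Over all genes, 185 higher and 48 lower became 0 and 0 with no filter (limma, 1880 genes at an unadjusted p under 0.05), 76 and 12 under quantile normalization, 93 and 15 under median log ratio scaling, 429 and 240 with the block, 354 and 136 with the block and quantile normalization, and 467 and 183 with the block and median log ratio scaling. With 1 sample left out they ran from 46 to 259 and from 10 to 136, where a lone sample is assumed to vary like the other group. The cause was not tested.

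Members near 0 reversed under quantile normalization and median log ratio scaling, with or without the block: Dhcr7 to 0.053 and 0.070, Scap to 0.057 and 0.068, Acaca to 0.0044 and 0.060, and Acly to 0.0086 under the latter. With 1 sample left out, directions reversed for Lss (-0.11 to 0.70), Dhcr7 (-0.31 to 0.30), Insig1 (-0.0020 to 0.21), Insig2 (-0.41 to 0.46), Scap (-0.33 to 0.31), Stard4 (-0.15 to 0.41), Fasn (-0.24 to 0.50), Acaca (-0.24 to 0.20), Elovl1 (-0.059 to 0.57), Elovl5 (-0.21 to 0.045), Elovl6 (-0.12 to 0.35), Fads1 (-0.39 to 0.058), Fads2 (-0.18 to 0.18) and Rnf145 (-0.036 to 0.35). No member was called with a sample left out.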
